A study of Mus musculus with 38 samples.

Results

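The nuclear-encoded respiratory chain genes were all genes, present in both count tables, whose mouse symbol names a subunit of complex I (Ndufa, Ndufb, Ndufc, Ndufs or Ndufv followed by a digit), complex II (Sdha, Sdhb, Sdhc or Sdhd), complex III (Uqcr), complex IV (Cox4 to Cox8) or complex V (Atp5), and which reached at least 1 CPM (a count relative to the library total, scaled to a fixed size) in at least 25% of the tumor columns. Of the 55487 genes, 97 had such a symbol and 81 passed, of which 39 belonged to complex I, 4 to complex II, 8 to complex III, 13 to complex IV and 17 to complex V. The annotation lists 79 of the 81 as protein coding. The other two were Ndufb1-ps, listed as a long noncoding RNA, and Ndufb4c, a processed copy of Ndufb4, and reads of Ndufb4 and Ndufb4c may have been split between them by the counting. The 16 genes that did not pass were 10 noncoding copies and 6 coding genes, among them the lung-enriched isoform Cox4i2, the muscle isoforms Cox6a2 and Cox8b, the testis isoforms Cox7b2 and Cox8c, and a second identifier of Atp5o. Of the members, Cox6b2 and Cox7a1 reached 1 CPM in the fewest tumor columns, 19 of 34 each, and outside the threshold Cox8b did so in 6 and Cox4i2 in 2.

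The respiratory chain sits in the inner mitochondrial membrane. Complex I takes electrons from NADH and complex II from succinate, complex III passes them on to cytochrome c, complex IV hands them to oxygen, and complex V, the ATP synthase, uses the proton gradient that complexes I, III and IV build. The mitochondrial genome encodes a few subunits of complexes I, III, IV and V, whereas complex II is nuclear-encoded throughout, and several complex IV subunits exist as isoforms with a ubiquitous and a tissue-restricted gene. Ndufa4 carries a complex I name but is now placed with complex IV, and its paralog Ndufa4l2 is known as a hypoxia-inducible gene. Both are counted with complex I throughout, by symbol only.

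Bulk RNA was sequenced from omental tumors of 2 syngeneic mouse models of high-grade serous ovarian cancer (HGSOC), 60577 grown in FVB mice and HGS2 grown in C57BL/6J mice, each started by intraperitoneal injection of 1 cell line into animals of 8 to 9 weeks. Treated mice received 3 weekly doses of carboplatin (20 mg/kg) with paclitaxel (10 mg/kg) from day 21 (60577) or day 49 (HGS2), controls received vehicle, and tumors were taken 1 (TP1), 7 (TP2) or 21 (TP3) days after the last dose. In 60577 there were 3 TP1 control, 3 TP1 treated, 3 TP2 control, 4 TP2 treated and 4 TP3 treated tumors, and in HGS2 3, 3, 4, 3 and 4 in the same order, with 2 monoculture libraries of each cell line. TP3 had no controls, so TP2 controls stood in for them and time and treatment cannot be told apart there, nor can model, strain and tumor age. The 34 tumor libraries held between 17839635 and 49299442 estimated counts, and the cell line libraries between 31633121 and 42461995. HGS2 TP3 treated replicate 1, the library with the fewest counts, is absent from the study's own tables and was left out of the tests, which used 33 tumors.

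Some libraries stood apart. In 60577 TP2 treated replicates 3 and 4, the 7SL RNA, the small cytoplasmic RNA of the signal recognition particle, took 19.4% and 26.5% of the counts. Protein-coding genes took 70.8% and 66.5% there. Both libraries also had the lowest summed CPM of the members, and the counts of members in 60577 are also given without both. Other libraries were high in 7SL too, with 20.9% in HGS2 TP2 control 2, where the members summed to 4600 CPM, and 15.4% in 60577 TP1 treated 3. In HGS2 TP1 control 3, TP2 control 2 and TP3 treated 2, genes of pancreatic acinar cells took 6.07%, 10.2% and 6.69% of the counts. Epithelial tumor markers were present in every tumor group, with 8 of 9 at a mean of at least 1 CPM. Single libraries differed, and HGS2 TP1 control 1 had a sum of 50.9 CPM, against 567 and 353 CPM in TP1 controls 2 and 3. In bulk RNA, fewer cells of a type and less RNA per cell cannot be told apart.

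Levels were first compared between members per kilobase of exon, as CPM per kb of TMM-scaled counts (TMM is a scaling that sets most genes equal between libraries). In untreated 60577 tumors the median over members was 18.5 CPM per kb for complex I, 30.1 for complex II, 32.2 for complex III, 39.3 for complex IV and 28.8 for complex V, and in untreated HGS2 tumors 18.7, 27.6, 35.9, 56.7 and 31.3. Complex I had the lowest median of the complexes in both models. Cox8a, a small structural subunit of complex IV, was the highest member in both, at 278 ± 22.2 CPM per kb (SD, n = 6) in 60577 and 165 ± 41 (SD, n = 7) in HGS2. It was followed by Cox4i1, the ubiquitous form of complex IV subunit 4, at 125 ± 15.9 and 123 ± 13, and by the catalytic ATP synthase β subunit Atp5b at 116 ± 15.6 and 114 ± 24.1, and these 2 neighbors differed by less than their spread in both models. The lowest coding members were Atp5s, the coupling factor B gene (1.34 ± 0.219 CPM per kb in 60577 and 1.85 ± 0.408 in HGS2), and Cox6b2, the testis form of complex IV subunit 6b (3.78 ± 0.682 and 0.538 ± 0.115). The order of the 81 members was similar in all 4 settings, with Spearman correlations across genes of 0.926 between the untreated tumors of both models, 0.947 between the cell lines and 0.856 to 0.958 for the other pairs. These correlations describe genes that share libraries and lengths and are not a test.

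The summed CPM of the 81 genes gives the outline across libraries. In 60577 the sum was 3977 to 4308 in TP1 controls, 3571 to 3975 in TP1 treated tumors and 4451 to 5067 in TP2 controls. In TP2 treated tumors it was 3870, 3198, 1700 and 1958 in replicates 1 to 4, and in TP3 treated tumors 4038 to 4287. All 4 TP2 treated libraries lay below every TP2 control and every other 60577 group except that replicate 1 lay within the TP1 treated range, and replicates 3 and 4 lay far below the rest. In HGS2 treated and control groups overlapped, at 3429 to 5018 (TP1 control), 3506 to 4921 (TP1 treated), 4079 to 5390 (TP2 control), 3338 to 4109 (TP2 treated) and 4532 to 6725 (TP3 treated, without replicate 1 at 4072). The TP3 treated range lay above that of TP2 treated tumors. The mitochondrially encoded subunits moved differently, with a summed CPM of 12646 and 14149 in 60577 TP2 treated replicates 1 and 2, the highest of the 60577 tumors, but 3096 and 3369 in replicates 3 and 4, the lowest. The ratio of mitochondrial to nuclear subunit RNA was 3.27 and 4.42 in replicates 1 and 2 against 1.63 to 2.11 in TP2 controls, and 1.82 and 1.72 in replicates 3 and 4.

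**Figure D1:**
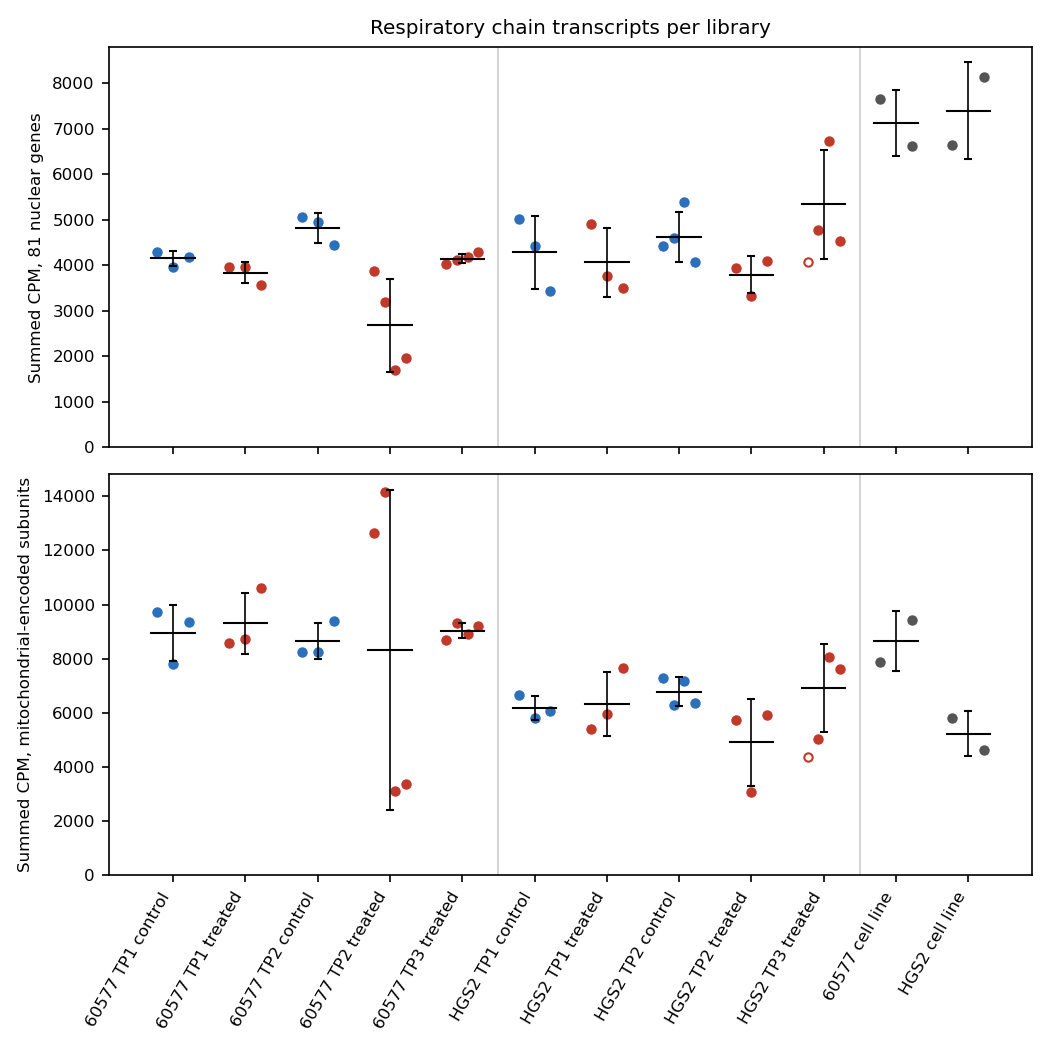
Summed TMM-scaled CPM per library (points) of the 81 nuclear genes (top) and of the mitochondrially encoded subunits (bottom) by group, with blue controls, red treated tumors, gray cell lines, a black line at the group mean and bars of 1 SD (n = 2 to 4). The open circle is HGS2 TP3 treated replicate 1, which is left out of mean and SD. The 60577 TP2 treated libraries are split, with 2 at 3198 and 3870 and 2 at 1700 and 1958 in the top panel.

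The treated comparison with the most calls among the respiratory chain genes was that of 60577 tumors 7 days after chemotherapy. Of the 81 members, 68 fell and 1 rose in treated against control tumors at TP2 (edgeR quasi-likelihood test, Benjamini-Hochberg adjusted p < 0.05 over 16300 genes), where 29.1% of all genes tested fell and 29.2% rose. The median log2 fold change over the members was −0.81, against 0.03 over all genes tested, and 26 members fell with a log2 fold change below −1, where 9.6% of all genes did. In 54 members every treated tumor was below every control, as in 25.4% of all genes tested. Every complex took part, with 33 of 39 members of complex I, 4 of 4 of complex II, 7 of 8 of complex III, 10 of 13 of complex IV and 14 of 17 of complex V falling, and medians of −0.73, −0.67, −0.86, −0.93 and −0.89.

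In complex I, as counted by symbol, the largest falls were in Ndufa4l2 and Ndufa8. Ndufa4l2 stood at 12.5, 43.7 and 8.2 CPM in TP2 controls and at 2.87, 3.97, 2.46 and 2.25 CPM in treated tumors, a log2 fold change of −2.91 (SE 0.47, adjusted p = 0.000154). The groups did not overlap, but control replicate 2 was far above the other controls, and without it the value was −1.84 (adjusted p = 0.000587). Ndufa8, an accessory subunit, stood at 50.3, 49.2 and 43.2 CPM in controls and 27.4, 24.6, 9.49 and 11.2 CPM in treated tumors, a log2 fold change of −1.39 (SE 0.27, adjusted p = 0.000622). The core subunits Ndufv1, which binds NADH, and Ndufs1 changed by −0.62 (SE 0.10, adjusted p = 0.000138) and −0.36 (SE 0.09). Ndufs1 stood at 74.4, 67.9 and 69.1 CPM in controls and 57.2, 61.9, 51.4 and 51.4 CPM in treated tumors, so that even this small change separated the groups. Of the complex I members, 6 did not pass, and of these Ndufs5, an accessory subunit, had a log2 fold change of −0.04 (SE 0.19, adjusted p = 0.864).

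In complex II, all subunits fell. Sdhd, one of the membrane anchors, stood at 64, 63.6 and 54 CPM in TP2 controls and at 41.5, 35.3, 19.7 and 21.7 CPM in treated tumors (log2 fold change −1.04, SE 0.20, adjusted p = 0.000599). Sdhc, the other anchor, changed by −0.72 (SE 0.16), the flavoprotein Sdha by −0.63 (SE 0.18) and the iron-sulfur subunit Sdhb by −0.62 (SE 0.12). No treated tumor reached a control in any of the 4 genes. With the 7SL share as a covariate, Sdha no longer passed (−0.43, adjusted p = 0.112), while Sdhd, Sdhc and Sdhb still passed. In complex III, Uqcrb, which lies near the ubiquinone pocket, stood at 19.1, 19.6 and 14.1 CPM in controls and 10.6, 10, 2.9 and 3.17 CPM in treated tumors (−1.41, SE 0.35, adjusted p = 0.00323). Uqcr10, a small accessory subunit, changed by −1.22 (SE 0.30), the Rieske iron-sulfur protein Uqcrfs1 by −0.97 (SE 0.18), and the core proteins Uqcrc2 and Uqcrc1 by −0.91 (SE 0.23) and −0.56 (SE 0.13). Uqcrh, the hinge protein, was the complex III member that did not pass (−0.28, SE 0.22, adjusted p = 0.278).

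In complex IV, the largest falls were in Cox7a1, Cox7a2 and Cox8a. Cox7a2, the ubiquitous form of subunit 7a, stood at 70.6, 73.2 and 61.4 CPM in TP2 controls and 42.9, 31, 8.95 and 12 CPM in treated tumors (−1.53, SE 0.37, adjusted p = 0.00261). Its muscle isoform Cox7a1 was low everywhere, at 2.98, 4.08 and 2.55 CPM in controls and 1.18, 2, 0.197 and 0.401 CPM in treated tumors (−1.74, SE 0.50, adjusted p = 0.00828). The call of Cox7a1 was lost with the 7SL share as a covariate (−1.21), as were calls in every complex. Cox8a stood at 167, 189 and 179 CPM in controls and 97.8, 87.8, 33.2 and 35.4 CPM in treated tumors (−1.50, SE 0.29, adjusted p = 0.000629). Cox7c and Cox5b, which are also nuclear structural subunits, changed by −1.39 (SE 0.30) and −1.27 (SE 0.22). Cox4i1 fell by 0.84 on the log2 scale (SE 0.22), while Cox6c, Cox6b2 and Cox7a2l, the respiratory supercomplex factor, did not pass, at −0.22 (SE 0.15), 0.02 (SE 0.24) and −0.35 (SE 0.23).

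In complex V, the 3 genes that encode the same subunit c of the proton-carrying ring fell together. Atp5g2 stood at 89.9, 126 and 101 CPM in TP2 controls and 60.4, 53.3, 27.2 and 29.8 CPM in treated tumors (−1.32, SE 0.22, adjusted p = 0.000204), Atp5g1 changed by −1.20 (SE 0.21) and Atp5g3 by −1.10 (SE 0.23). The catalytic subunits Atp5b and Atp5a1 changed by −1.04 (SE 0.21) and −0.67 (SE 0.19), and the stalk subunit Atp5o by −1.20 (SE 0.29). Atp5s was the member that rose, from 2.95, 2.61 and 2.8 CPM in controls to 2.98, 4.59, 5.12 and 4.77 CPM in treated tumors (0.63, SE 0.21, adjusted p = 0.0177). Its lowest treated tumor was just above the highest control.

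**Figure D2:**
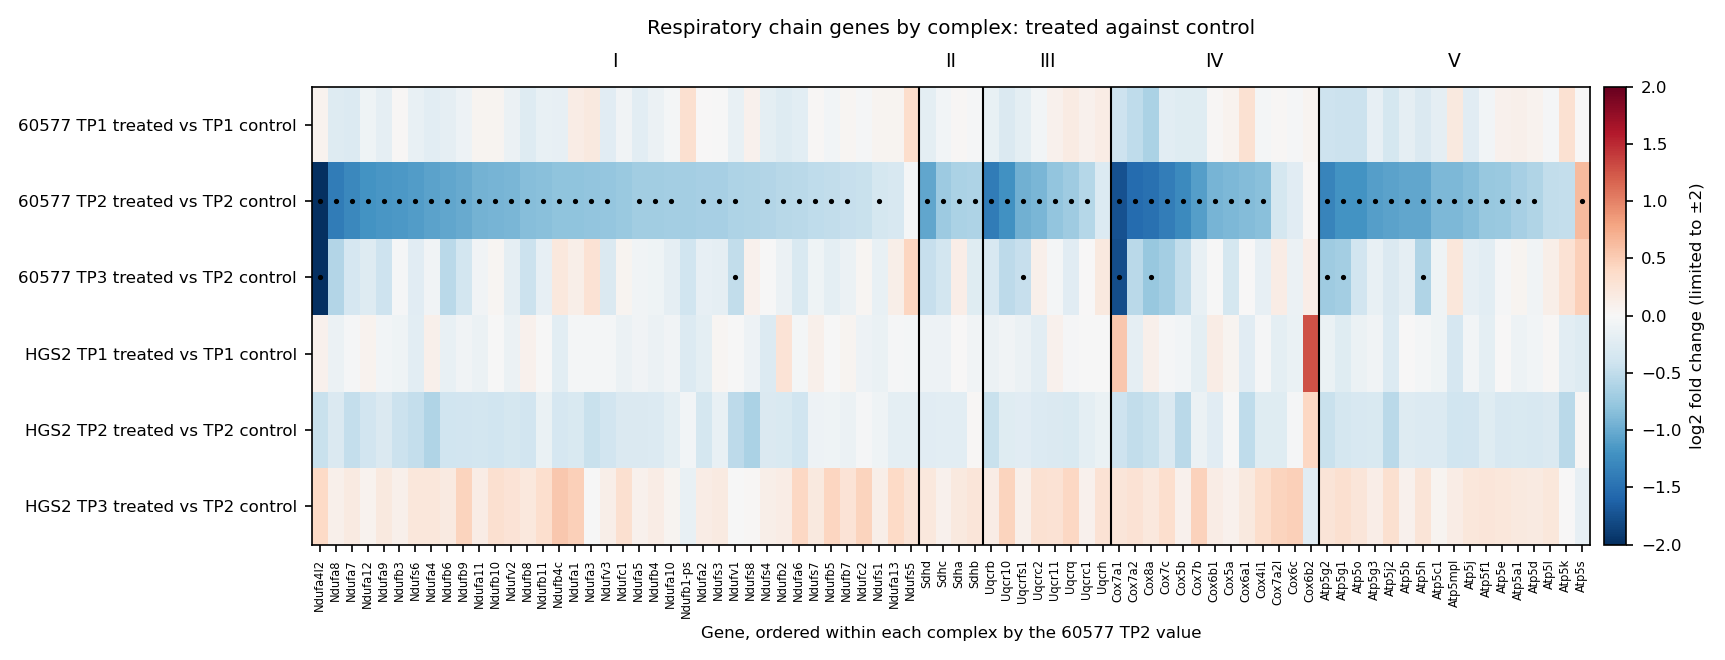
Log2 fold change (color, limited to ±2) of 80 of the 81 genes (columns, grouped by complex I to V and ordered by the 60577 TP2 value) in 6 comparisons of treated with control tumors (rows), with a dot where edgeR's adjusted p was below 0.05. The 60577 TP2 row is blue with dots in 67 columns and red with a dot for Atp5s, the 60577 TP3 row has 8 dots, and the HGS2 rows have none.

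The promoters of members with the largest falls were read to show what lies in front of genes that moved together. Of the 81 members, 66 had a promoter in the RefSeq table (GRCm38.p6), 250 bases before to 50 after the annotated start. Motifs were searched as plain letters on both strands, and a match describes letters, not binding. GCATGCG, the core of the NRF1 motif, was in 10 of 66 member promoters (15.2%), in 3.64% of all 27025 promoters and in 6.17% of the 11090 promoters of genes tested in tumors. CCGGAAG, the ETS core read by GABP, was in 15 (22.7%, against 9.12% and 17.1%), AAGATGG, the YY1 core, in 10 (15.2%, against 6.48% and 7.06%), AAGGTCA, the core of nuclear receptor sites, in 8 (12.1%, against 4.66% and 3.02%) and CACGTG, the E-box, in 6 (9.09%, against 7.24% and 9.88%). None of the 5 was found in 43.9% of member promoters and 72.9% of all promoters. Within the 250 bases before the start alone, 8 member promoters held the NRF1 core (12.1%, against 3.07% of all promoters and 5.21% of those of tested genes). The ETS core was there in 11 (16.7%, against 7.05% and 13.1%) and AAGGTCA in 5 (7.58%, against 4.05% and 2.67%). The E-box was in 6 (9.09%, against 6.05% and 8.21%) and the YY1 core in 0. For the YY1 core the shares there were 4.53% of all promoters and 4.23% of those of tested genes, so its matches in members lay at or after the start. Shown are 150 bases directly upstream of the RefSeq start, 5′ to 3′ on the gene's strand with motif matches in capitals, for the member of each complex with the largest TP2 fall that had a promoter. They lie at chr2:36049339-36049488 (Ndufa8, minus strand), chr9:50603850-50603999 (Sdhd, minus strand), chr11:4704345-4704494 (Uqcr10, minus strand), chr7:30184021-30184170 (Cox7a1, plus strand) and chr15:102671048-102671197 (Atp5g2, minus strand).
Ndufa8: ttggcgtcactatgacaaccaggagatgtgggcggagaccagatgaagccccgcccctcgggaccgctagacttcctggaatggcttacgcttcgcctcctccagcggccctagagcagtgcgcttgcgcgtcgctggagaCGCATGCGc
Sdhd: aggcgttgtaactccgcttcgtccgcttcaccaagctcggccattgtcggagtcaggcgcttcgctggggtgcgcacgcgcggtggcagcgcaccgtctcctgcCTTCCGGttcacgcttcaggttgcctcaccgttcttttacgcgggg
Uqcr10: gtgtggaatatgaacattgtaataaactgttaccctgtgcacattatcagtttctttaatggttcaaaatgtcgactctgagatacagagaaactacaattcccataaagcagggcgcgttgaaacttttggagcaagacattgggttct
Cox7a1: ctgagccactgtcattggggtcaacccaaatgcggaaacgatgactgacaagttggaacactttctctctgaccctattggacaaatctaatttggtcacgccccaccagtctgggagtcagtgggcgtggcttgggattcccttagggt
Atp5g2: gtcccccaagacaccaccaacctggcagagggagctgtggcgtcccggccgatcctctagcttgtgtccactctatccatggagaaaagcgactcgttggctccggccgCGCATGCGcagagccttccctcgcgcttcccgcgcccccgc
Ndufa8 and Atp5g2, which both fell at TP2, carry the NRF1 core on both strands, 9 and 41 bases before the start at the farther match, and Sdhd carries the ETS core 46 bases before it, whereas the printed stretches of Uqcr10 and Cox7a1 hold none of the 5. The GENCODE annotation draws some genes with an earlier start, so that the windows of Ndufa8 and Cox7a1 reach into the gene and that of Atp5g2 lies wholly within it.

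Without TP2 treated replicates 3 and 4, 51 of the 81 members still fell in 60577 at TP2 and none rose, where 23.7% of all genes fell. All 51 were among the 68. By complex, 23, 4, 5, 9 and 10 members of complexes I to V fell, the median log2 fold change was −0.39 in place of −0.81, and in 65 members the value with all libraries was over 1.5 times the value without them. Ndufa4l2 kept most of its change (−2.66, adjusted p = 0.00505), whereas Ndufa8 went to −0.87, Sdhd to −0.66, Uqcrb to −0.78, Cox7a2 to −0.89, Cox7a1 to −1.01, Cox8a to −0.94 and Atp5g2 to −0.89, each with an adjusted p below 0.05. Atp5s no longer passed (0.44, adjusted p = 0.142), nor did Ndufa4 (−1.06 with all libraries, −0.37 and adjusted p = 0.0696 without).

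**Figure D3:**
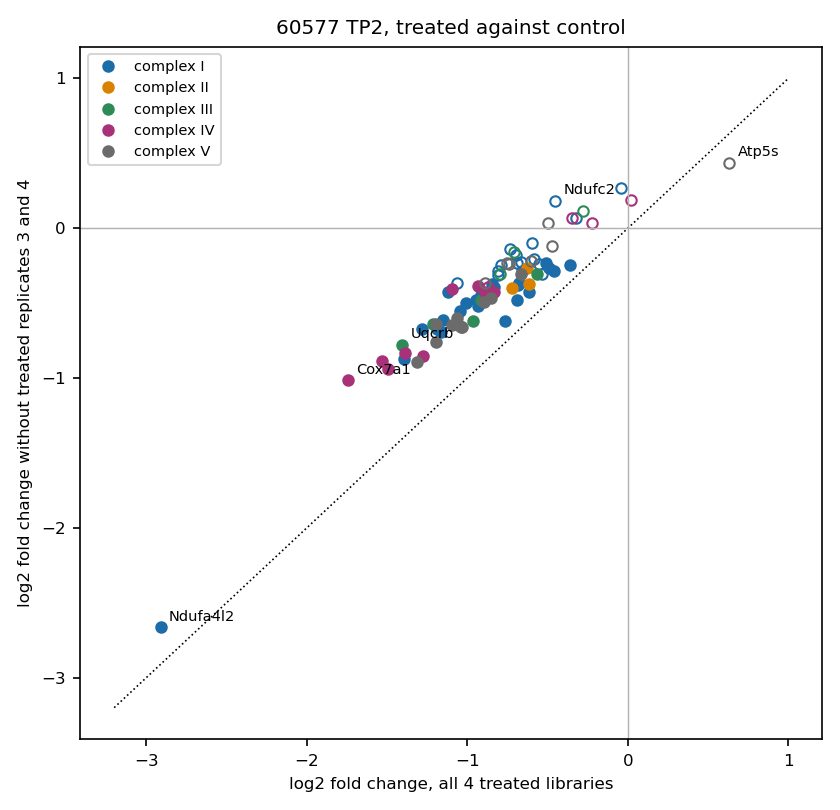
Log2 fold change of each of the 81 genes at 60577 TP2 with all 4 treated libraries (x axis) and without treated replicates 3 and 4 (y axis), colored by complex, filled where the adjusted p without both was below 0.05. The dotted line marks equal values, and most points lie above it and below 0, with the median moving from −0.81 to −0.39 and Ndufa4l2 staying near the line at −2.91 and −2.66.

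Markers of cell types and other measures also differed between TP2 controls and TP2 treated tumors of 60577. In 60577 the summed epithelial tumor markers were 2412 to 3438 CPM in TP2 controls and 599 to 987 CPM in TP2 treated tumors, the pan-leukocyte markers (5 of 5 present) 242 to 339 and 487 to 872 CPM, the white adipocyte markers 47.4 to 65.5 CPM (5 of 9 at a mean of at least 1 CPM) and 317 to 1593 CPM (9 of 9), and the proliferation markers 508 to 533 and 122 to 191 CPM. None of the 9 white adipocyte markers was at 0 counts in a tumor group. At TP1, where no member passed, the epithelial tumor markers were 2195 to 2610 CPM in controls and 565 to 971 CPM in treated tumors. The pan-leukocyte markers were 166 to 299 and 558 to 574 CPM there, and the proliferation markers 568 to 676 and 162 to 208 CPM. The white adipocyte markers overlapped at TP1, at 42.4 to 52.0 and 45.2 to 1253 CPM. The part of these markers in the fall of the respiratory chain genes was not tested. Among coding genes outside the members, short genes also fell more often, while the shares of members that fell did not drop steadily with length. The Spearman correlation of the members' log2 fold change with exon length was 0.311 at TP2. Without TP2 treated replicates 3 and 4 it was 0.115. The members had a median exon length of 1569 bases against 4491 for the 13875 other coding genes, and 23.5% against 2.04% were under 1 kb. Within the 4 length classes (under 1 kb, 1 to 2 kb, 2 to 4 kb and over 4 kb) 84.2%, 78.8%, 89.5% and 90% of members fell at TP2, against 54.1%, 39.6%, 35.7% and 28.5% of other coding genes. Without TP2 treated replicates 3 and 4 the shares were 57.9%, 51.5%, 84.2% and 70% against 41.7%, 28.2%, 27.7% and 24.8%.

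One day after chemotherapy, at TP1, no member passed in 60577, where 17.1% of all genes rose and 16.1% fell. The median log2 fold change was −0.06 (range −0.64 to 0.35), 0 members had an unadjusted p below 0.05, against 43.2% of all genes, and 25 members had all treated tumors below all controls and 3 had them above, against 29.9% and 25.9% of all genes. The value farthest from 0 was that of Cox8a, at 182, 153 and 160 CPM in controls and 114, 110 and 92.1 CPM in treated tumors (−0.64, SE 0.31, adjusted p = 0.133). The subunit c gene Atp5g1 was also separated, at 67.5, 61.1 and 65.6 CPM against 47.9, 48 and 46.6 CPM (−0.44, SE 0.23, adjusted p = 0.159). All groups of the 60577 model share 1 estimate of the spread, and without TP2 treated replicates 3 and 4 in the fit 9 members fell at TP1 and none rose, where 19.8% of all genes fell.

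At TP3, 21 days after the last dose, 9 of the 81 members were lower in 60577 treated tumors than in TP2 controls and none was higher, where 26.0% of all genes were lower and 25.4% higher. The median over the members was −0.17. Among them were Ndufa4l2 and Ndufv1 of complex I, Uqcrfs1 of complex III, Cox7a1 and Cox8a of complex IV, and Atp5g2, Atp5g1 and Atp5h, the stalk subunit d, of complex V, with none of complex II. When 1 library was left out, Cox8a lost the call in 7 of 7 fits (adjusted p up to 0.0988), Uqcrfs1 in 6 of 7 (adjusted p up to 0.156) and Atp5g2 in 1, without TP2 control replicate 2 (−0.56), and with the replicate block Cox8a (−0.62) and Uqcrfs1 (−0.42) lost it too. Ndufa4l2 stood at 2.56, 3.59, 2.16 and 2.23 CPM, with the TP2 controls of the TP2 comparison again as reference (−3.03, SE 0.47, adjusted p = 9.56e-05, and −1.96 without TP2 control replicate 2). The TP3 and TP2 values share these controls. Cox7a1 stood at 0.864, 0.831, 0.711 and 1.3 CPM (−1.78, SE 0.50, adjusted p = 0.00767), and Ndufv1 at 71.8, 72.6, 73.6 and 75.9 CPM against 106, 106 and 99.5 CPM in TP2 controls (−0.49, SE 0.10, adjusted p = 0.000722). The 4 TP3 tumors were close to each other, with the summed CPM of all members spanning 4038 to 4287. Without TP2 treated replicates 3 and 4 in the fit, 28 members were lower and 1 higher, the 9 among them, where 29.9% and 28.5% of all genes were.

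The white adipocyte markers reached 2566 to 3648 CPM at TP3, the leukocyte markers 765 to 826 CPM, and the epithelial tumor markers 433 to 578 CPM, and the part of these in the TP3 values was not tested. Against TP1 treated tumors, TP3 treated tumors differed in 1 member, Ndufa4l2, which was lower, where 14.0% of all genes were lower and 12.5% higher. TP1 treated tumors had 14.3, 5.74 and 9.12 CPM of it, and without TP1 treated replicate 1 the value of −1.87 became −1.48 and no longer passed. Without TP2 treated replicates 3 and 4 in the fit, 9 members were higher and 5 lower, where 16.4% and 19.1% of all genes were. Controls of TP2 against TP1 differed in no member and 0.0% of all genes. The median over the members was 0.23, against 0.03 over all genes tested, and 79 of 81 values were positive. At an unadjusted p below 0.05, 2 members were higher and 0 lower, against 4.37% and 4.87% of all genes.

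In HGS2, no member passed in any of the 5 comparisons, and neither did more than 0.0% of all genes (edgeR quasi-likelihood test). DESeq2 called at most 8 genes higher and 11 lower over the whole table in any of them, and no member. At TP2 the median over the members was −0.29 and 78 of 81 values were negative, with 6 members lower and 0 higher at an unadjusted p below 0.05, against 2.79% and 4.79% of all genes. In 23 members all treated tumors were below all controls, against 6.73% of all genes. Between TP2 controls and TP2 treated tumors of HGS2, the summed epithelial tumor markers were 510 to 1116 and 252 to 316 CPM, the mesothelial markers 1627 to 2348 and 412 to 714 CPM, the macrophage markers 1249 to 1984 and 2162 to 2913 CPM and the neutrophil markers 11.2 to 43.7 and 44.0 to 54.7 CPM, and their part in these values was not tested. The smallest unadjusted p was that of Ndufa4, at 36.4, 33.3, 49.1 and 26.7 CPM in controls and 26.1, 20.3 and 25.9 CPM in treated tumors (−0.60, SE 0.24, adjusted p = 0.613). The groups of Ndufa4 did not overlap, and those of Cox6a1, the ubiquitous subunit 6a, did not either, at 83.3, 84, 77.7 and 62.8 CPM against 56.6, 44.4 and 62.5 CPM (−0.51, SE 0.20, adjusted p = 0.614). At TP1 the median was −0.06, with 1 member (Cox6b2) higher and 0 lower before adjustment, against 1.11% and 1.44% of all genes. Between TP2 and TP1 controls 0 members passed before adjustment, against 1.61% (higher) and 1.87% (lower) of all genes. At TP3 against TP2 controls the median was 0.21, with 5 members higher and 0 lower at an unadjusted p below 0.05, against 1.6% and 0.926% of all genes. Against TP1 treated tumors the TP3 median was 0.40, with 22 members higher and 1 lower before adjustment, against 3.37% and 3.4% of all genes, and the summed CPM of TP3 replicate 3 was 6725, the highest of all tumors. Without the 3 libraries with acinar RNA there was still no call, and the medians were −0.23 at TP1, −0.30 at TP2 and, at TP3, 0.26 against TP2 controls and 0.49 against TP1 treated tumors. Single libraries also moved the medians over all libraries. Without TP3 treated replicate 3 they were −0.02 against TP2 controls and 0.17 against TP1 treated tumors, and at TP1 they ran from −0.22 without control replicate 3 to 0.06 without control replicate 1.

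The response to treatment was compared between the models directly, as the difference of the log2 fold changes (HGS2 minus 60577). At TP1 no member differed, where 0.589% of all genes were higher and 1.13% lower. The median difference was 0.003, with 1 member higher and 0 lower at an unadjusted p below 0.05, against 8.56% and 10.3% of all genes. At TP2 the median difference was 0.50 and 1 member passed, where 6.01% of all genes were higher and 4.34% lower. The member was Ndufa8, which in HGS2 stood at 38.9, 43.1, 48.1 and 42.8 CPM in controls and 36, 30.5 and 40.3 CPM in treated tumors, a difference of responses of 1.10 (SE 0.35, adjusted p = 0.0439). The call was lost in 9 of 14 fits that left out 1 library. With the replicate number as a block the difference was 1.03 (adjusted p = 0.0847), and without 60577 TP2 treated replicates 3 and 4 it was 0.59 (adjusted p = 0.183), with a median over the members of 0.13 and no call among them, where 0.933% of all genes were higher and 0.742% lower. At an unadjusted p below 0.05, 24 members were higher and 0 lower, against 14.6% and 14.3% of all genes. The larger fall in 60577 was therefore not shown to differ from HGS2 for the other 80 members.

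The models were also compared before treatment. In untreated tumors 9 members were higher and 14 lower in HGS2 than in 60577, where 28.1% of all genes were higher and 23.4% lower, and the median over the members was −0.01. None of complexes II and III passed, against 13 of 39 in complex I, 6 of 13 in complex IV and 4 of 17 in complex V. Between the controls of 60577 and of HGS2 the summed fibroblast markers were 5680 to 9922 and 27296 to 134430 CPM, the epithelial tumor markers 2195 to 3438 and 50.9 to 1116 CPM and the macrophage markers 395 to 1055 and 1249 to 2738 CPM, without overlap, and their part in these differences was not tested. Ndufs5 stood at 5.59, 5.28, 6.44, 7.31, 6.5 and 6.01 CPM in 60577 and at 10.9 to 19.6 CPM (median 16.3) in the 7 HGS2 controls (1.30, SE 0.14, adjusted p = 5.52e-08). Cox7a2l, which takes part in joining complexes III and IV, stood at 32.6 to 50.6 CPM in the 6 controls of 60577 and 75.8 to 113 CPM in HGS2 (1.32, SE 0.16, adjusted p = 3.16e-07). Both were above every 60577 control in every HGS2 control.

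Cox6b2 went the other way, at 3.51 to 5.64 CPM in 60577 controls and 0.447 to 0.801 CPM in HGS2 controls (−2.80, SE 0.29, adjusted p = 2.12e-08), again without overlap. Every HGS2 control lay under the 1 CPM of the member filter. Cox6b2 passed that filter through other tumors, so its difference between the models is a description only. Ndufc2, an accessory subunit of the membrane arm, stood at 27.9 to 34.3 CPM against 12.5 to 19.5 CPM (−0.99, SE 0.23, adjusted p = 0.000914), and Cox6a1 at 38.1 to 56.5 CPM against 62.8 to 84 CPM (0.73, SE 0.18, adjusted p = 0.00142). Ndufa4l2 was higher in HGS2 (1.98, SE 0.47, adjusted p = 0.00107) although the libraries overlapped, at 7.93 to 43.7 CPM against 28.5 to 95.5 CPM, while its paralog Ndufa4 was lower (−0.69, SE 0.26, adjusted p = 0.0271). Without 60577 TP2 treated replicates 3 and 4 in the fit 13 members were higher and 18 lower, among them all 23, where 28.7% and 24.0% of all genes were, and without the HGS2 libraries with acinar RNA 8 were higher and 10 lower, where 26.5% and 26.3% of all genes were.

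**Figure D4:**
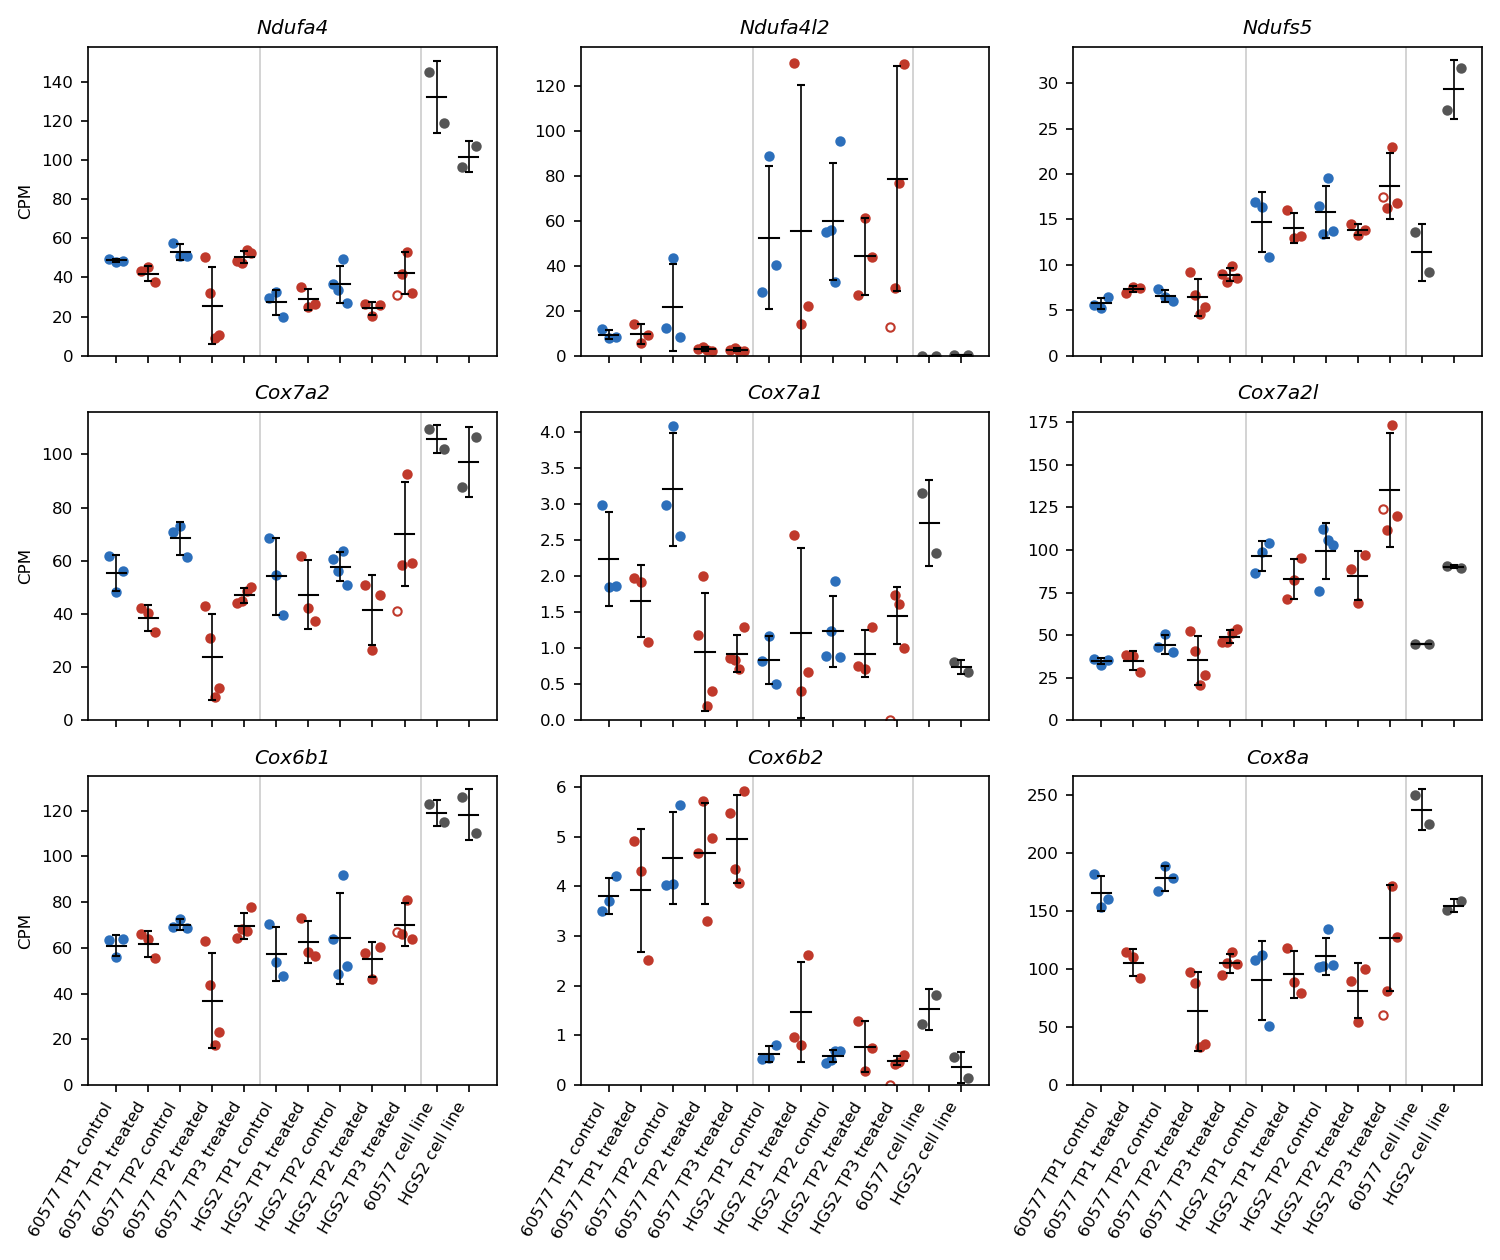
TMM-scaled CPM per library (points) by group of 9 members that are isoforms, paralogs or accessory subunits, with blue controls, red treated tumors and gray cell lines. Ndufs5 and Cox7a2l are higher in HGS2 tumors and the HGS2 line, Cox6b2 is at 3.51 to 5.64 in 60577 controls and 0.447 to 0.801 in HGS2 controls, and Ndufa4l2 is near 0 in both lines.

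In the cell lines, grown without a host, 3 of the 80 members tested were higher in HGS2 and 1 lower, where 9.1% of all genes were higher and 9.82% lower. Cox7a2l stood at 44.9 and 44.8 CPM in the 60577 line and 90.9 and 89.5 CPM in the HGS2 line (1.01, SE 0.16, adjusted p = 0.017), and Ndufs5 at 13.6 and 9.16 against 27 and 31.6 CPM (1.37, SE 0.27, adjusted p = 0.0268). Both differed in the same direction as in the tumors. Ndufv3, an accessory subunit next to the NADH site, stood at 39.9 and 37.9 against 85.9 and 67.9 CPM (0.98, SE 0.19, adjusted p = 0.027), and Cox7a1 at 3.15 and 2.31 against 0.809 and 0.675 CPM (−1.88, SE 0.45, adjusted p = 0.0423). Both HGS2 line libraries lay under the 1 CPM of the filter, so Cox7a1 entered this test through the 60577 line alone. Its difference between the lines is a description only. All 4 lost the call when either 60577 line library was left out, with 2 libraries a line. Ndufa4l2 was nearly missing from both lines, with 1 and 0 counts in 60577 and 13 and 4 in HGS2, although tumors held 2.16 to 131 CPM of it.

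The stretches upstream of Ndufs5 and Cox7a2l are shown because these members were higher in both HGS2 tumors and the HGS2 line. They lie at chr4:123718187-123718336 (Ndufs5, minus strand) and chr17:83514334-83514483 (Cox7a2l, minus strand) in GRCm38.p6, are written as above, and hold none of the 5 motifs in the printed bases.
Ndufs5: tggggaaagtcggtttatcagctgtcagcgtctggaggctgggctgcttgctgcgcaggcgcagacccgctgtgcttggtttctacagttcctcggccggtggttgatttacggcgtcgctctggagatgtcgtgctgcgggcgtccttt
Cox7a2l: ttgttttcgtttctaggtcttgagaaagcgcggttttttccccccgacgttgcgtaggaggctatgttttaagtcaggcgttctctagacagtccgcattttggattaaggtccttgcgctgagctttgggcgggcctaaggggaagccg
These are reference bases, and the bases of the tumors and lines themselves were not read. As GENCODE draws the genes, the Ndufs5 window overlaps the start of the gene and that of Cox7a2l lies wholly within it.

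**Figure D5:**
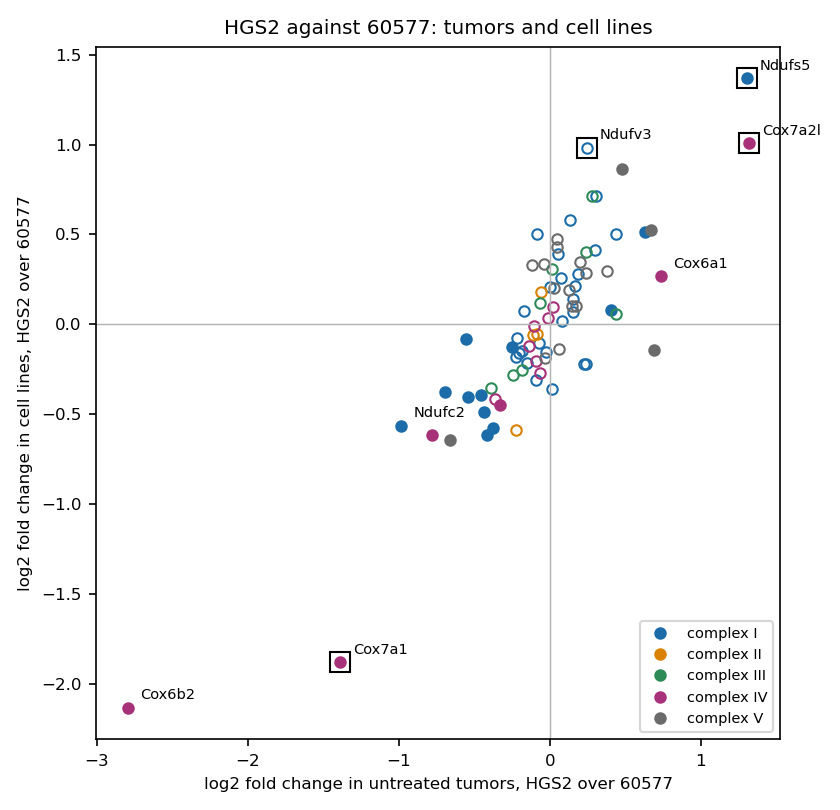
Log2 fold change of HGS2 against 60577 for each member in untreated tumors (x axis, 7 against 6 libraries) and in the cell lines (y axis, 2 against 2), colored by complex, filled where the adjusted p in tumors was below 0.05 and with a black square where it was in the cell lines. Cox7a2l (1.32 and 1.01) and Ndufs5 (1.30 and 1.37) lie apart at the upper right, and Cox7a1 (−1.39 and −1.88) at the lower left. The cell line value of Cox7a1 is a description only, since both HGS2 line libraries lay under 1 CPM.

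The respiratory chain genes had a higher summed CPM in the lines than in the untreated tumors. It was 6620 and 7652 in the 60577 line and 6652 and 8151 in the HGS2 line, against 3977 to 5067 in untreated 60577 tumors and 3429 to 5390 in untreated HGS2 tumors. Of the treated tumors, HGS2 TP3 treated replicate 3, at 6725, lay above 1 library of each line. Of the 81 members, 66 were above every untreated tumor in both libraries of the 60577 line and 61 in those of the HGS2 line, with median ratios of 1.58 and 1.6, and 4 and 1 were below every tumor. Lines and tumors were scaled in separate tables, so these levels are set side by side without a test.

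Genes outside the member list that serve the same pathway were counted from lists. At 60577 TP2, where 29.1% of all genes fell and 29.2% rose, the mitochondrially encoded subunits had no call in either direction among 12 (median 0.06), whereas cytochrome c (Cycs), cytochrome c1 (Cyc1) and the acyl carrier protein Ndufab1 fell, 3 of 3. Of the mitochondrial ribosomal proteins, which build the mitochondrial subunits, 56 of 78 fell and 1 rose (median −0.66), of the TCA cycle enzymes 13 of 16 fell and 1, Pcx, rose (median −0.55), and of the assembly factors 17 of 46 fell and 2 rose. All 13 glycolysis genes tested fell, with a median of −2.15, and 6 of 14 fatty acid oxidation genes did. The summed glycolysis CPM was 17559 in TP2 control replicate 2, against 7524 and 6505 in the other TP2 controls and 1655 to 2820 in treated tumors. This high control also enters the glycolysis values at TP3 and in the TP2 difference between the models. Of 14 regulators of mitochondrial biogenesis, 4 fell and 3 rose.

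At TP3 the 13 glycolysis genes were still all lower than in TP2 controls (median −2.14), with 27 of 78 mitochondrial ribosomal proteins lower and 4 higher, and 2 of 16 TCA cycle genes lower and 3 higher, where 26.0% and 25.4% of all genes were. At TP1 11 of 78 mitochondrial ribosomal proteins fell and 1 rose, none of 13 glycolysis genes passed, and 4 of 14 regulators fell, where 16.1% of all genes fell and 17.1% rose. In HGS2 no gene of these lists passed. The TP2 responses of the models differed for 12 of 13 glycolysis genes and 9 of 78 mitochondrial ribosomal proteins, all higher in HGS2 minus 60577, and for 1 of 46 assembly factors, lower, where 6.01% of all genes were higher and 4.34% lower. In untreated tumors 20 of 78 mitochondrial ribosomal proteins were higher and 8 lower in HGS2, and 6 of 13 glycolysis genes were lower, where 28.1% of all genes were higher and 23.4% lower. In the cell lines 3 of 13 mitochondrially encoded subunits were lower in HGS2 and 4 of 13 glycolysis genes higher, where 9.82% and 9.1% of all genes were.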

How the data were processed

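The authors trimmed strand-specific, paired-end reads of rRNA-depleted RNA (Trim Galore 0.6.5), aligned them to GRCm38 (STAR 2.7.0f), counted on the Ensembl annotation and deposited RSEM expected counts per gene, per the labels and the study's methods. The deposited expected counts (3.59% and 3.4% of all values, zeros included, not whole in the tumor and cell line tables) were rounded. Symbols and exon lengths came from GENCODE (GRCm38). Within each table, counts were scaled by TMM, genes under 1 CPM in over 75% of libraries were dropped, and edgeR 4.0.16 quasi-likelihood fits (R 4.3.3) gave 1 fit for each model's tumors, 1 for both models and 1 for the cell lines, with Benjamini-Hochberg adjustment over 16300 or 13742 genes. Alternatives used DESeq2 1.42.0 and limma 3.58.1. The tests were checked on simulated data. The labels do not always say what separated replicates, so p-values measure the spread between these samples. Same-numbered TP2 libraries deviated together weakly (correlations 0.115 to 0.144 in 60577 and 0.136 to 0.298 in HGS2). The labels name no pairs, so the main tests had no replicate block and the block is given as an alternative. Named genes were, per comparison and complex, the 2 members with the largest absolute log2 fold change past the threshold, plus isoform pairs, 13 listed subunits and the highest and lowest members by level; other named members were chosen after their values were seen. One item is not reported here. Members, gene lists and named genes were chosen with earlier results of these data known.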

Additional observations from a re-analysis of the deposited data

Results flagged for a closer look

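In groups of 4 libraries, a library was marked when its gap to the nearest other library took up most of the group's range (Dixon's 95% limit). Among 132 tests there were 8, and 1 in 20 would give 6.6. Ndufa8 was marked in 60577 TP3 treated replicate 4 (0.905 of the range, 35.9 CPM against 30.0 to 30.5 in the others), and Atp5k in 60577 TP3 treated replicate 2 (0.955, 5.75 against 5.07 to 5.10 CPM). The other 6 all had HGS2 TP2 control replicate 3 as the highest library. They were the summed CPM of complex II (0.843, 374 against 264 to 281), Cox8a (0.947), Atp5g3 (0.942), Ndufb8 (0.842), Uqcrc2 (0.829) and Cox5a (0.905). The TP2 response of Ndufa8 differed between the models by 1.10 on the log2 scale (HGS2 minus 60577) in the test of the difference itself (edgeR quasi-likelihood, adjusted p = 0.0439). The difference was 1.03 (adjusted p = 0.0847) with the replicate block and 0.59 (adjusted p = 0.183) without 60577 TP2 treated replicates 3 and 4, and the call was lost in 9 of 14 fits that left out 1 library.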

How the results depend on the processing

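Of 562 recomputed comparison values 505 stayed within the limits set and 57 moved, and of 544 single gene values 489 kept their call, 55 lost it and 0 changed sign. Member counts follow. With a length and GC offset, TP1 of 60577 had 2 calls, TP3 against TP2 control 18 (16 with the replicate block), TP3 against TP1 treated 6 (5 with the block), the TP2 difference of responses 2 (0 with the block) and the cell lines 10 (median 0.27). Fitting only the groups compared gave 10 calls at TP1 (1 higher, 9 lower, with 20.4% and 20.5% of all genes), 35 at TP2 (0 and 35, 19.9% and 19.9%), 29 at TP3 against TP2 control (3 and 26, 25.4% and 27.6%) and 24 against TP1 treated (17 and 7, 18.5% and 19.6%). With the 7SL share as covariate TP2 had 33, TP3 against TP2 control 17 and the difference 0. Among the members that lost the TP2 call were Cox7a1 (−1.21), Sdha (−0.43), Uqcrc2 (−0.64), Cox4i1 (−0.63), Atp5a1 (−0.48) and Atp5s (0.42). Without 60577 TP2 treated 3 and 4 the counts were 9, 51, 29 and 14 and for the difference 0, with TP2 medians of −0.39 and 0.13. TP3 against TP1 treated had 2 calls with DESeq2 and 0 with both models in 1 fit. The difference had 0 calls without a filter, with the replicate block or with all 34 tumors, 6 with DESeq2, and 2 with limma-voom or without the acinar libraries. The cell lines had 7 without a filter or with DESeq2. Leaving out 1 library gave 53 to 78 calls at TP2 (median −1.14 without treated replicate 1, to −0.65), 6 to 9 and 0 to 1 at TP3, 0 to 29 for the difference (29 without 60577 TP2 treated replicate 1, median 0.36 to 0.82) and 0 to 10 for the cell lines. Uqcrfs1 and Cox8a at TP3 lost their calls in most of these. The replicate block, in pairs that share only a number, took the calls of Uqcrfs1 (−0.42) and Cox8a (−0.62) at TP3 and of Cox7a1 in the lines (−1.87), where crossed pairs gave 3 calls higher and 0 lower. With the longest transcript as length, median levels were 32.1, 31.3, 52.9 and 52.2 CPM per kb in place of 21.6, 22.4, 38.9 and 37.4 (60577 and HGS2 tumors, 60577 and HGS2 lines). The causes were not tested. At these depths low members such as Cox7a1 and Cox6b2 rest on few counts.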
